A study of Cavia porcellus with 34 samples.

Results

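Immediate early genes are switched on within minutes of a stimulus, without new protein being made first, and are widely used as markers of recently active neurons. The 10 genes examined here were taken by symbol, and they were FOS, FOSB and JUNB, which form AP-1 transcription factors, the zinc finger factors EGR1, EGR2, EGR3 and EGR4, the nuclear receptor NR4A1, the neuron-specific factor NPAS4, and ARC, whose product acts at synapses. All 10 were listed in each generation, among 12590 gene symbols listed in at least 1 generation. In the paraventricular nucleus (PVN), the hypothalamic nucleus whose CRH and AVP neurons drive the hypothalamic-pituitary-adrenal axis, FOS and its relatives are induced by stress. Neuronal firing raises calcium and cAMP, which act through CREB, SRF and their kinases on the promoters of these genes. Their RNA is short-lived, so a level in frozen tissue reflects a narrow window before death.

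RNA of PVN micropunches was sequenced in juvenile female guinea pigs on postnatal day 40, in 3 generations of the paternal line. The F0 dams had received, while pregnant, the synthetic glucocorticoid betamethasone (sGC, "Beta" in the labels) or vehicle (Veh, "Control"). F1 were therefore exposed in utero, and F2 and F3 were descended from the exposed F1 through males and were not treated themselves. Each group held 5 animals in F1 and F2 and 6 in F3, every animal from a litter of its own. No allele or transgene was involved. Brains were collected in the morning after decapitation, the punch could include hypothalamus next to the PVN, and a punch contains neurons and glia, so fewer cells of a type and less RNA per cell cannot be told apart.

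The deposited values were normalized counts of each generation, made separately, and rounded to whole numbers. Their sum per animal was 15.57 to 21.94 M (mega) in F1, 15.65 to 19.44 M in F2 and 18.69 to 18.98 M in F3. Between tables, the median gene differed by 0.0011 on the log2 scale between F2 and F1 and by 0.037 between F2 and F3. Neuropeptides of the PVN were present in every animal, although their summed level (AVP, OXT, CRH, TRH and SST) ranged from 21092 to 186824 in F1 sGC against 91530 to 212300 in F1 Veh. It ranged from 80507 to 171475 in F2 sGC against 58430 to 99418 in F2 Veh. In F3 it was 20426 to 37139 in sGC against 14277 to 51877 in Veh. The Veh medians were 180951, 89934 and 26111.5 in F1, F2 and F3. The part of this fall in comparisons between generations was not tested. Of the 6 sGC animals in F3, 2 were sequenced in a later batch that held no Veh animal of its own in these values.

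Most members passed a filter on low values, a mean over the animals of the generation no lower than 10 normalized counts. FOSB had means of 6.5, 5.6 and 8.75 in F1, F2 and F3, and NPAS4 means of 8.5, 9.4 and 7.17, so neither entered the limma fits. EGR2 passed in F1 and F3, with means of 21.8 and 28.25, and did not in F2, with a mean of 6.8. That left 8 members tested by limma in F1, 7 in F2 and 8 in F3. Counts over these members are not counts over the whole group.

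**Figure D1:**
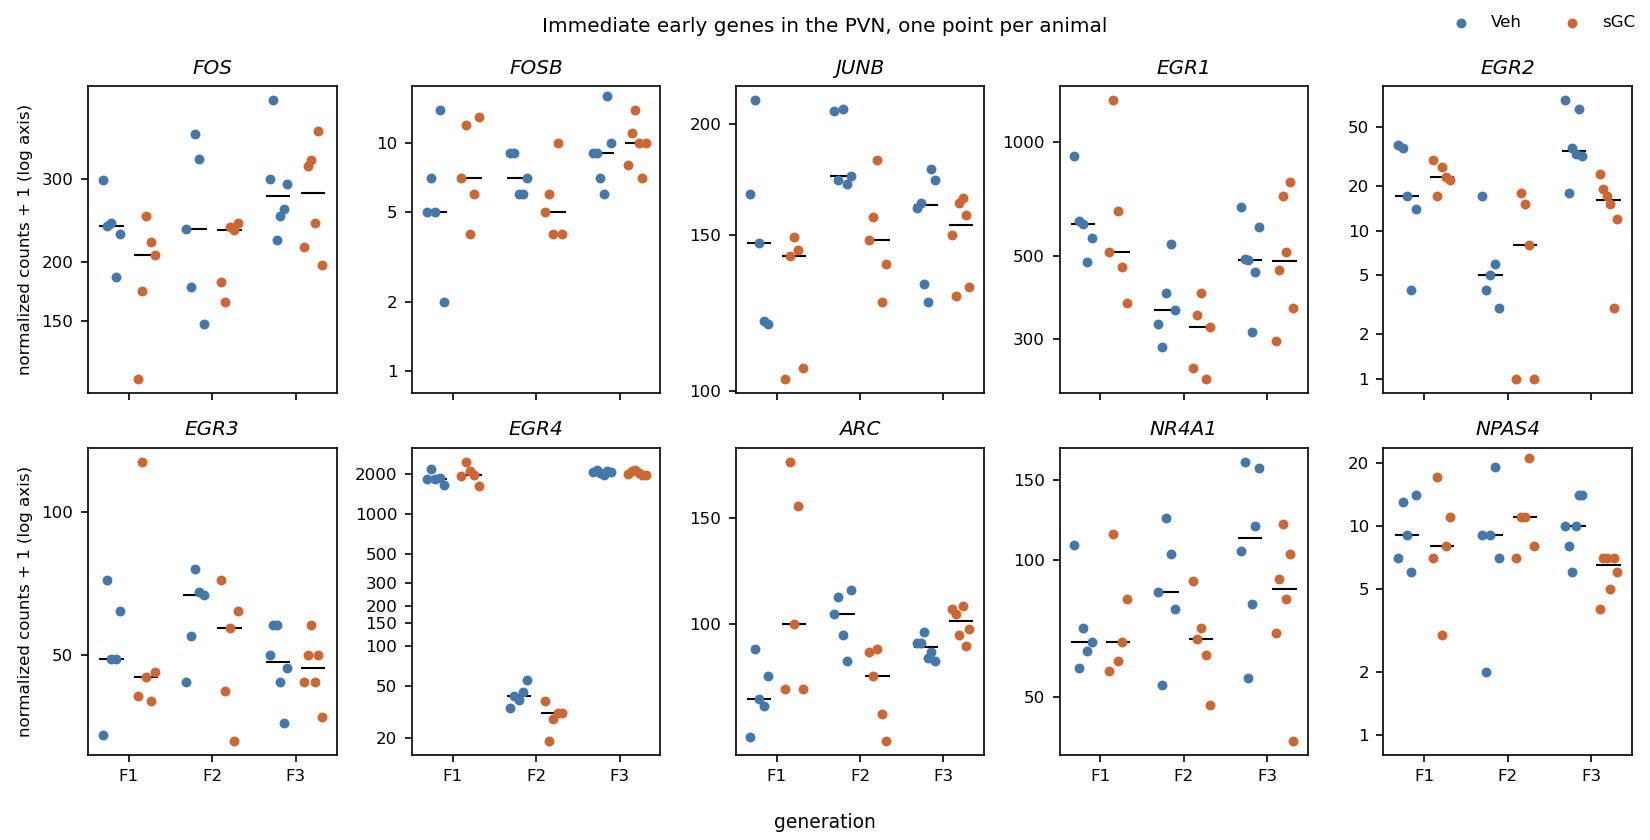
Normalized counts plus 1 (log axis) of the 10 immediate early genes, with a point for each animal, Veh in blue and sGC in orange, by generation, and a line at each group's median. The Veh and sGC animals overlapped for every gene in every generation, and the EGR4 values of F2 lay between 18 and 54 against 1619 to 2499 in F1.

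The first question was whether exposure of the ancestor to sGC changed the level of these genes in the PVN. No member passed the test in any generation. On log2(value + 1), limma with Benjamini-Hochberg adjustment over all genes called 0 of 8 members in F1, 0 of 7 in F2 and 0 of 8 in F3. The share of all genes called was 0.657% in F1, 0% in F2 and 0.0506% in F3, so a count of 0 does not set the members apart from all genes. After scaling by median-of-ratios size factors these shares were 17.3%, 0% and 0.0422%, and again 0 members were called. At an unadjusted p under 0.05 there were 1 of 8 members in F1 (ARC), 3 of 7 in F2 (ARC, JUNB and EGR4) and 2 of 8 in F3 (EGR2 and ARC), beside 13.6%, 11.7% and 13.1% of all genes. On the deposited scale the Veh and sGC animals were apart without overlap for 0 members, against 2.04%, 2.4% and 1.21% of all genes. After scaling by the size factors ARC in F2 was narrowly apart, and the share of all genes was not computed on that scale. Across 488 fits of members under other settings, 0 passed, with a lowest adjusted p of 0.0915 (limma) for JUNB in F1 after quantile normalization.

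**Figure D2:**
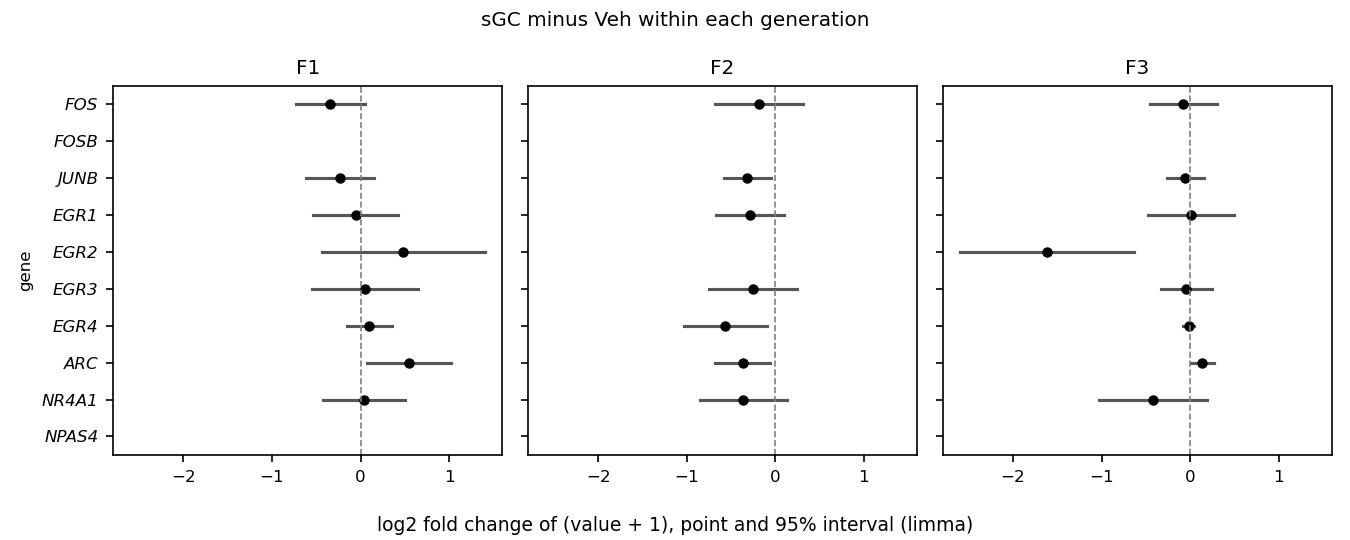
Log2 fold change of sGC against Veh on the log2(value + 1) scale, as points with their 95% limma intervals, for each member tested in F1, F2 and F3. FOSB and NPAS4 have no point, nor has EGR2 in F2. EGR2 in F3 lay farthest from 0, at -1.61, and the ARC intervals excluded 0 with opposite signs in F1 and F2 before adjustment.

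FOS, the partner of JUN proteins in AP-1 and the usual marker of neuronal activation, was between 112 and 440 normalized counts in every animal. In F1 the Veh animals had 297, 238, 241, 185 and 228 normalized counts and the sGC animals 112, 173, 249, 220 and 206. Of the 5 sGC animals, 4 were below the Veh median and the groups overlapped. Its log2 fold change was -0.34 (SE 0.19; 95% interval -0.73 to 0.05; limma, adjusted p = 0.455), and -0.16 without the sGC animal SGM4. In F2 the Veh animals had 234, 176, 372, 329 and 147 and the sGC animals 181, 164, 236, 233 and 241, so the Veh values spanned those of sGC. In F2 the log2 fold change was -0.18 (SE 0.23; 95% interval -0.68 to 0.32; limma, adjusted p = 0.765), and it ranged from -0.35 without the Veh animal SGM29 to -0.020 without the Veh animal SGM27. In F3 the Veh animals ranged from 222 to 440 with a median of 275 and the sGC animals from 196 to 379 with a median of 279.5. The medians were nearly equal, with a log2 fold change of -0.08 (SE 0.18; 95% interval -0.46 to 0.30; limma, adjusted p = 0.902).

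JUNB is an AP-1 subunit. In F2 the Veh animals had 206, 172, 207, 170 and 174 normalized counts and the sGC animals 147, 156, 181, 125 and 138. All sGC animals but SGM30, at 181, were below every Veh animal. The log2 fold change was -0.32 (SE 0.12; 95% interval -0.58 to -0.05; limma, adjusted p = 0.355; exact permutation test, two-sided, p = 0.0317), and -0.24 after scaling by the size factors (limma, adjusted p = 0.26). In F1 it was -0.23 (SE 0.19; limma, adjusted p = 0.653) on the deposited scale and -0.30 after scaling by the size factors (limma, adjusted p = 0.108), and in F3 it was -0.06 (SE 0.10; limma, adjusted p = 0.862). FOSB, whose product also joins AP-1, stayed within 1 to 13 normalized counts in F1, 3 to 9 in F2 and 5 to 15 in F3, below the filter.

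EGR1, the most studied factor of the EGR family and a regulator of synaptic genes, differed more between animals than between groups. In F1 the Veh animals had 914, 617, 605, 480 and 557 normalized counts and the sGC animals 510, 1290, 655, 465 and 374. The highest value, 1290, belonged to the sGC animal SGM8. With all animals the log2 fold change was -0.06 (SE 0.23; limma, adjusted p = 0.945) and -0.33 without SGM8. In F2 it was -0.29 (SE 0.18; limma, adjusted p = 0.55), from 286 to 535 in Veh and 234 to 398 in sGC. In F3 it was 0.01 (SE 0.23; limma, adjusted p = 0.989), from 312 to 672 in Veh and 295 to 780 in sGC. The mean over all animals was 646.7 in F1, 345.5 in F2 and 510.25 in F3, in tables that had been normalized separately.

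EGR2, known for its part in myelination by Schwann cells and also induced by neuronal activity, showed the largest difference of any member. In F3 the Veh animals ranged from 17 to 75 normalized counts with a median of 33.5, and the sGC animals from 2 to 23 with a median of 15. All 6 sGC animals were below the Veh median, and only the Veh animal SGM14, at 17, was within the range of the sGC animals. The mean was 42.5 ± 22.4 (SD, n = 6) in Veh and 14 ± 7.13 (SD, n = 6) in sGC. The log2 fold change was -1.61 (SE 0.46; 95% interval -2.60 to -0.63; limma, adjusted p = 0.177), and the exact permutation test, two-sided, gave p = 0.00649 against a smallest possible p of 0.00216. The sGC animals of the later batch were at 2 and 11, the lowest of the group, and the 4 sGC animals of the first batch at 14 to 23. Within the first batch the log2 difference was -1.07 (exact permutation test, two-sided, p = 0.0333; limma, adjusted p = 0.371). In F1 the direction was the opposite, with 37, 35, 16, 3 and 13 in Veh and 29, 16, 26, 22 and 21 in sGC, a log2 fold change of 0.48 (SE 0.44; limma, adjusted p = 0.706) that came to -0.03 without the Veh animal SGM15, at 3. In F2 EGR2 was between 0 and 17 in both groups. With the group means removed, EGR2 in F3 had r = -0.71 with the mean log2 level of 6 oligodendrocyte markers and r = 0.67 with 7 astrocyte markers. It had r = 0.60 with 7 ependymal markers and r = -0.58 with 5 PVN neuropeptides. With pan-neuronal, thalamic and endothelial markers r was 0.03, -0.02 and -0.03. These values are a description over 12 animals. The summed oligodendrocyte level ranged from 51482 to 73532 in Veh and from 53670 to 76114 in sGC. The highest sum belonged to SGM21 of the later batch, whose EGR2 was 2, and r without it was not computed. The part of these cell types in the difference of EGR2 was not tested.

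EGR3, which binds the same DNA element as EGR1, had means near 50 normalized counts in each generation. Its log2 fold change was 0.05 (SE 0.29; limma, adjusted p = 0.963) in F1, -0.25 (SE 0.23; limma, adjusted p = 0.677) in F2 and -0.04 (SE 0.13; limma, adjusted p = 0.929) in F3. In F1 the sGC animals had 40, 127, 44, 39 and 45, and SGM8 was at 127, above the Veh animals, which ranged from 33 to 71. Without SGM8 the log2 fold change in F1 was -0.26.

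EGR4, a zinc finger factor of the same family, cannot be read in the same way in each generation, because its row was at 1619 to 2499 normalized counts in F1, 18 to 54 in F2 and 1969 to 2147 in F3. The mean was 54.2 times higher in F1 and 57.0 times higher in F3 than in F2. Such a shift was rare, since of 11648 genes listed in all 3 generations 41 were lower in F2 than in both other generations by more than 3 on the log2 scale and 3 were higher, 0.378% together. In the RefSeq annotation of the mCavPor4.1 assembly EGR4 is listed next to FBXO41, a gene for an F-box protein expressed in neurons, and the spans overlap. A row for FBXO41 was found in F2 and not in F1 or F3. In F2 it held 1765 to 2632 normalized counts, close to the EGR4 rows of F1 and F3. How many reads of EGR4 in F1 and F3 belong to FBXO41 was not tested, so the EGR4 values of F1 and F3 are uncertain as measures of EGR4.

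**Figure D3:**
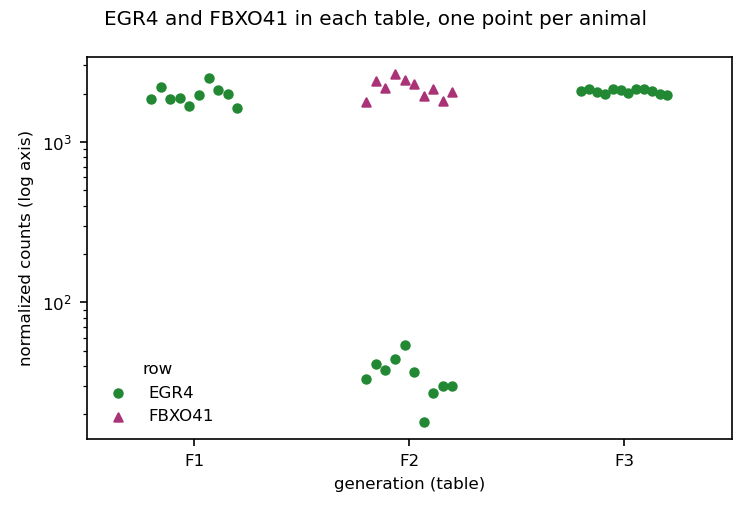
Normalized counts (log axis) of the rows EGR4 and FBXO41, with a point for each animal by generation. EGR4 in F1 and F3 lay at the level of FBXO41 in F2, and the EGR4 row of F2 lay at 18 to 54.

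In F2, where the rows were separate, EGR4 was at 33, 41, 38, 44 and 54 in Veh and 37, 18, 27, 30 and 30 in sGC. All 5 sGC animals were below the Veh median, and SGM21, at 37, lay within the Veh range. The log2 fold change was -0.57 (SE 0.22; 95% interval -1.03 to -0.10; limma, adjusted p = 0.349; exact permutation test, two-sided, p = 0.0159), and after scaling by the size factors it was -0.49 (exact permutation test, two-sided, p = 0.0635). EGR4 had r = 0.67 with FBXO41 and r = 0.70 with 6 pan-neuronal markers over these 10 animals, with group means removed. In F1 the EGR4 row gave a log2 fold change of 0.10 (SE 0.12; limma, adjusted p = 0.802) and in F3 of -0.02 (SE 0.03; limma, adjusted p = 0.838).

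NR4A1 (Nur77), an orphan nuclear receptor that takes part in CRH and POMC transcription, had no difference past the test. In F3 the Veh animals ranged from 54 to 164 normalized counts with a median of 111 and the sGC animals from 39 to 119 with a median of 85.5. Of the 6 sGC animals, 5 were below the Veh median, and the log2 fold change was -0.42 (SE 0.29; 95% interval -1.03 to 0.20; limma, adjusted p = 0.574), and -0.22 without SGM22 of the later batch. In F2 the Veh animals had 84, 52, 123, 102 and 77 and the sGC animals 89, 66, 70, 61 and 47, a log2 fold change of -0.36 (SE 0.23; limma, adjusted p = 0.554) that came to -0.23 without the Veh animal SGM27. In F1 it was 0.04 (SE 0.22; limma, adjusted p = 0.964), and the direction changed with the scaling.

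NPAS4, which is induced by calcium influx in neurons and shapes inhibitory synapses, was low throughout. In F3 the Veh animals ranged from 5 to 13 normalized counts with a median of 9 and the sGC animals from 3 to 6 with a median of 5.5. All 6 sGC animals were below the Veh median while the groups overlapped at 5 and 6. The log2 difference was -0.75 (exact permutation test, two-sided, p = 0.0173, not adjusted), and limma without the filter on low values gave an adjusted p of 0.22. In F1 the difference was -0.23 and in F2 it was 0.54, with 2 to 16 and 1 to 20 normalized counts over all animals. At values this low a change of a few normalized counts moves the log2 difference widely.

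ARC, which controls the removal of AMPA receptors from synapses and whose RNA moves into dendrites, had an unadjusted p under 0.05 in each generation, in differing directions. In F1 the Veh animals had 64, 90, 74, 72 and 81 normalized counts and the sGC animals 77, 185, 99, 156 and 77. All 5 sGC animals were above the Veh median, and 2 of them, SGM8 and SGM16, were far above the rest. The log2 fold change was 0.55 (SE 0.23; 95% interval 0.08 to 1.02; limma, adjusted p = 0.284), 0.37 without SGM8 and 0.43 without SGM16, and the exact permutation test, two-sided, gave p = 0.0714. In F2 the Veh animals had 103, 110, 95, 86 and 113 and the sGC animals 89, 81, 90, 70 and 63. All 5 sGC animals were below the Veh median, with a log2 fold change of -0.37 (SE 0.14; 95% interval -0.68 to -0.06; limma, adjusted p = 0.358; exact permutation test, two-sided, p = 0.0238). After scaling by the size factors the F2 difference was -0.30 (exact permutation test, two-sided, p = 0.00794, the smallest possible). The lowest Veh animal was then at 6.472 on the log2 scale and the highest sGC animal at 6.465. Over the other settings the lowest adjusted p of ARC in F2 was 0.243 (limma). In F3 the Veh animals ranged from 86 to 96 with a median of 90.5 and the sGC animals from 91 to 106 with a median of 100. All 6 sGC animals were above the Veh median by a small amount. The log2 fold change was 0.14 (SE 0.06; 95% interval 0.01 to 0.27; limma, adjusted p = 0.366; exact permutation test, two-sided, p = 0.0195). The residual SD of ARC in F3 was 0.07 on the log2 scale, at the 1.98th percentile among genes of similar level. The exact p rests on that small spread. The part of the authors' normalization in this spread was not tested.

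SGM8, the sGC animal of F1 with the highest EGR1, EGR3, ARC and NR4A1 (1290, 127, 185 and 113 normalized counts), also had the highest summed pan-neuronal level of its generation, 89935 against 61582 to 82400 in the others, and the highest summed oligodendrocyte level, 103146 against 36849 to 69452. Its FOS was 173 and its summed PVN neuropeptide level 30849. The part of these in its values was not tested.

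In F2 all 7 members tested had a log2 fold change below 0, from -0.57 for EGR4 to -0.18 for FOS, with a median of -0.32. Of all genes, 75.5% were below 0 in F2 on the deposited scale with a median of -0.08, and 50.8% once size factors were applied, where all 7 members were still below 0 with a median of -0.24. The pan-neuronal markers had 6 of 6 below 0 as well, with a median of -0.20. The endothelial and microglial markers had 7 of 7 and 5 of 5 below 0. Other lists lay the other way in F2, with 5 of 5 PVN neuropeptides (median 0.40), 6 of 6 ependymal markers (median 0.97), 4 of 5 transcription factors of PVN neurons, 5 of 7 thalamic markers and 4 of 7 astrocyte markers above 0. The oligodendrocyte markers had 7 of 7 below 0, with a median of -0.87 and summed levels of 68680 to 111095 in sGC against 130419 to 236881 in Veh. Their part in the members' values was not tested. In F1, 3 of 8 members were below 0 against 36.2% of all genes (5 of 8 against 49.3% after scaling), and in F3, 6 of 8 against 51% (6 of 8 against 50.1%).

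The second question was whether the effect of sGC differed between generations. The difference of effects was tested by exact permutation of the treatment labels within each generation, and p-values were adjusted over all genes tested in both. The null of this permutation is no sGC effect in either generation, so equal effects other than 0 were not tested as such. No member passed after adjustment. The ARC effect was 0.92 higher in F1 than in F2 on the log2 scale (exact permutation test, two-sided, p = 0.00258; adjusted over 11612 genes p = 0.134), and the ARC effect in F2 was 0.51 below that in F3 (difference -0.51; exact permutation test, two-sided, p = 0.000472; adjusted over 11638 genes p = 0.0916). After scaling by size factors these differences were 0.78 (exact p = 0.00592) and -0.43 (exact p = 0.000137). ARC in F1 against F3 gave a difference of 0.41 (exact p = 0.261). In F3 the residual SD of ARC was 0.07, small for genes of its level, and the comparisons with F3 rest partly on that spread. EGR2 in F1 against F3 differed by 2.10 (exact p = 0.0138; adjusted over 11539 genes p = 0.2). EGR4 is kept in the counts that follow, although its values in F1 and F3 are uncertain. Its mean was 54.2 times higher in F1 and 57.0 times higher in F3 than in F2. At an unadjusted exact p under 0.05 were 2 of 7 members between F1 and F2 (ARC and EGR4), 1 of 8 between F1 and F3 (EGR2), and 2 of 7 between F2 and F3 (ARC and EGR4), beside 14.7%, 15% and 13% of all genes, and 0.207%, 0.485% and 0.0859% of all genes passed after adjustment. After scaling there were 2 of 7, 1 of 8 and 1 of 7 members, beside 19.7%, 31% and 14.2% of all genes, and 0 members passed after adjustment, beside 0.568%, 14% and 0.12% of all genes.

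The third question was whether the members varied together across animals. For this the values were scaled by median-of-ratios size factors and the group means were removed, so that a treatment difference could not enter. The median Pearson r over pairs of tested members was 0.23 in F1 (28 pairs), 0.10 in F2 (21 pairs) and 0.33 in F3 (28 pairs), against -0.0019, -8.7e-05 and -0.00037 over all pairs of genes tested. Pairs with r above 0.7 made up 3.57%, 0% and 7.14% of member pairs and 4.25%, 6.65% and 2.56% of all pairs, below the background in F1 and F2 and above it in F3. In F1 the share was 1 pair, EGR3 with EGR4 (r = 0.74), which rests on the uncertain EGR4 values, and in F3 it was 2 pairs. The median r of F1 and of F3 also includes the pairs with these EGR4 values. With the other tested members EGR4 had r of -0.73 (EGR2) to 0.74 (EGR3) in F1. In F3 it had r of 0.18 (ARC) to 0.66 (NR4A1), all above 0. Medians over the tested members without EGR4 were not computed. Pairs share their animals and are not independent, and these values are a description over 10, 10 and 12 animals.

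**Figure D4:**
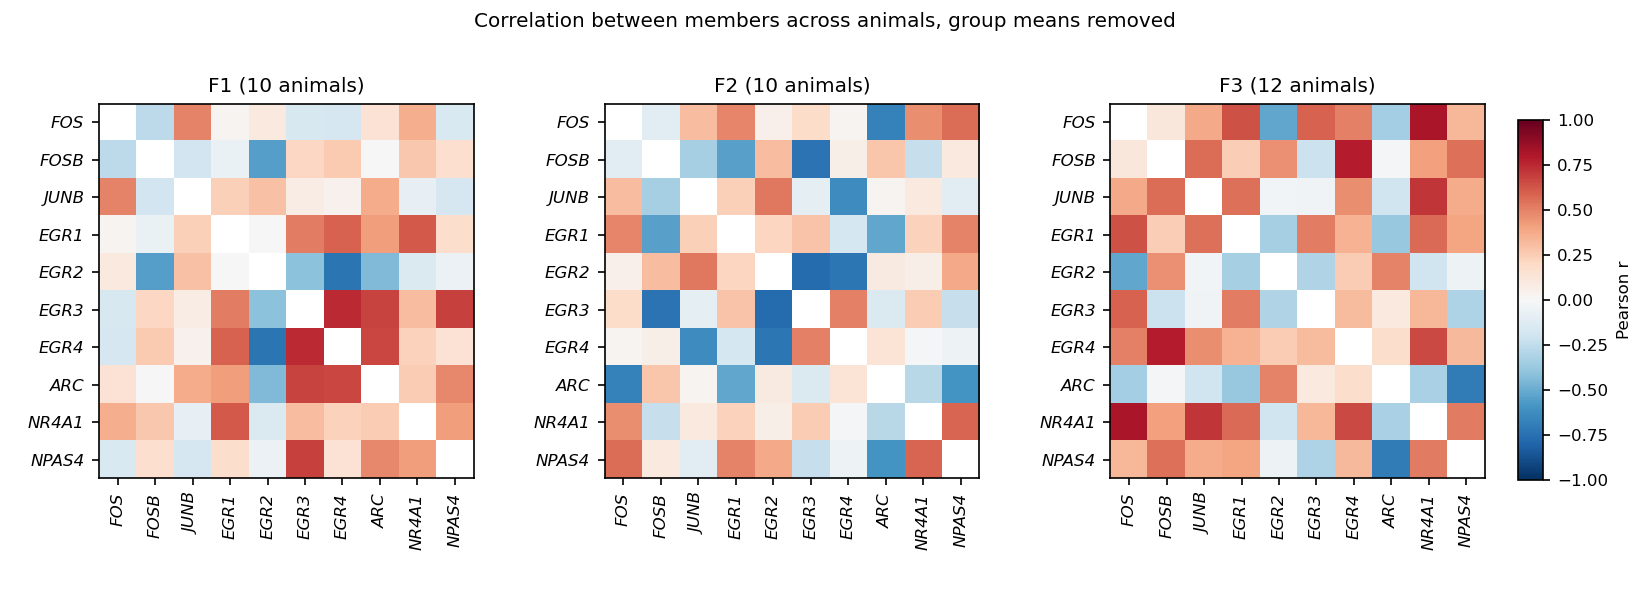
Pearson r between each pair of the 10 members across animals of F1, F2 and F3, after scaling and removal of group means, from blue (-1) to red (1). FOS and NR4A1 had r = 0.82 in F3, and EGR2 with EGR3 was below 0 in all 3 generations. FOSB and NPAS4 were below the filter in all 3 generations and EGR2 in F2.

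Several pairs kept a sign in all 3 generations, at mixed sizes, and those given here are examples. EGR3 and NR4A1 had r of 0.31, 0.25 and 0.33 in F1, F2 and F3, and JUNB and EGR1 had 0.24, 0.24 and 0.55. EGR1 and NR4A1 had r of 0.62, 0.23 and 0.57 in F1, F2 and F3. EGR1 and EGR3 had r of 0.51, 0.29 and 0.51. EGR2 and EGR3, members of 1 family, had r of -0.41, -0.77 and -0.30, where EGR2 in F2 was below the filter. Other pairs changed sign, such as ARC and NPAS4, with r of 0.48 in F1 and of -0.60 and -0.70 in F2 and F3.

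FOS was then set against each of the other 9 members in each generation, FOSB and NPAS4 included although below the filter, 27 relations in all, with exact permutation of animals within groups. FOS and NR4A1 in F3 had r = 0.82 (exact permutation p = 0.0013; Benjamini-Hochberg adjusted over 27 relations p = 0.0352) and Spearman rho = 0.90 (exact permutation p = 0.000218; adjusted p = 0.00589) over 12 animals. Without the 2 animals farthest from the median of FOS r was 0.83, in Veh alone 0.79 and in sGC alone 0.86. In the first batch alone r was 0.80 (exact permutation p = 0.00909), which adjusted over 9 relations gave p = 0.0818. By r with FOS in F3, NR4A1 had rank 48 of 11863 genes. Leaving out each animal kept r between 0.77 and 0.86, and the adjusted p went above 0.05 without each of SGM13, SGM5, SGM18, SGM2 and the sGC animals SGM21 and SGM22 of the later batch, up to 0.161.

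**Figure D5:**
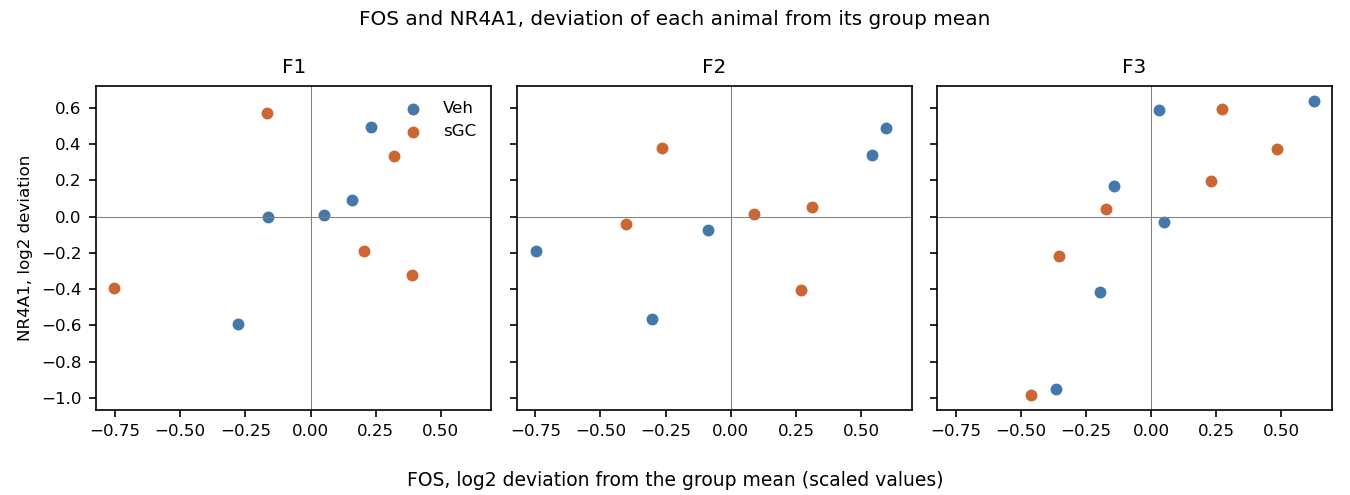
Deviation of each animal from its group mean on the log2 scale (scaled values), FOS on the horizontal and NR4A1 on the vertical axis, Veh in blue and sGC in orange, for F1, F2 and F3. Over both groups r was 0.36 in F1, 0.47 in F2 and 0.82 in F3. In Veh alone it was 0.88, 0.82 and 0.79, and in sGC alone 0.18, -0.49 and 0.86.

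None of the other 26 relations passed after adjustment. FOS and NR4A1 had r = 0.36 (rho = 0.31; exact permutation p = 0.367) in F1 and r = 0.47 (rho = 0.58; exact permutation p = 0.266) in F2. For FOS and NR4A1 in Veh alone r was 0.88 in F1 and 0.82 in F2, and in sGC alone 0.18 and -0.49, over 5 animals each. FOS and EGR1 had r of 0.03, 0.49 and 0.64 in F1, F2 and F3, with exact permutation p of 0.944, 0.221 and 0.0431. FOS and JUNB, which dimerize, had r of 0.49, 0.31 and 0.38. FOS and ARC had r of 0.14, -0.68 and -0.34. Whether r differed between generations was not tested. The other members were set beside cell type markers by r alone, with no test. With the pan-neuronal markers EGR1 had r of 0.73, 0.31 and -0.33 in F1, F2 and F3, EGR3 0.73, 0.74 and 0.26, and NR4A1 0.62, 0.27 and 0.25. ARC had 0.53, 0.0074 and -0.10, and JUNB -0.11, -0.57 and -0.36. EGR3 with the PVN neuropeptides had -0.30, -0.33 and 0.84. The part of cell content in these relations was not tested. FOS was tested against 10 lists of cell type markers in each generation, and 0 of 30 relations passed. The lowest p was for 7 endothelial markers in F1 (r = -0.82; rho = -0.76; exact permutation p = 0.0189; adjusted p = 0.473; r = -0.54 without 2 animals).

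Spread between animals depends on level, since low genes vary more, so it is given against all genes and against genes of similar level. The residual SD of FOS, with group means removed, was 0.37, 0.46 and 0.36 on the log2 scale in F1, F2 and F3, at the 88.9th, 94.0th and 96.4th percentile of all genes tested and the 87.3rd, 94.1st and 98.5th among genes of similar level. EGR1 was at the 97.4th, 89.9th and 99.6th percentile among genes of similar level, NR4A1 at the 74.3rd, 73.8th and 98.5th, EGR3 at the 86.5th, 69.0th and 59.0th, EGR2 at the 94.4th in F1 and the 99.1st in F3, and EGR4 in F2 at the 49.8th. The EGR4 values of F1 and F3, uncertain as above, were at the 78.0th and 36.3rd. For ARC the residual SD was 0.41 in F1, 0.16 in F2 and 0.07 in F3, at the 80.1st, 19.9th and 1.98th percentile among genes of similar level. JUNB was at the 44.5th, 16.4th and 79.2nd.

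The genes whose pattern across animals was most like the mean of the tested members were ranked by the lowest of their 3 values of r. Of 10537 genes, the 8 first were DMXL2, CASKIN1, MPP2, TMEM55B, CDC42BPA, SPEG, LPAR2 and TMEM132D. DMXL2, a synaptic vesicle protein, had r of 0.64, 0.62 and 0.62 in F1, F2 and F3, and CASKIN1, a scaffold protein that binds CASK, had r of 0.60, 0.78 and 0.72. When EGR4 was left out of the mean, 3 of the 8 genes were named again (MPP2, CASKIN1 and LPAR2).

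Other genes of the pathway were followed by lists. Of 25 other rapidly induced transcription regulators, 21, 20 and 21 were tested in F1, F2 and F3, and 0 passed in each. NR4A2, a relative of NR4A1, differed by 0.47 on the log2 scale in F1 (SE 0.17; limma, adjusted p = 0.19) and by -0.26 (SE 0.27; limma, adjusted p = 0.709) in F2. KLF4 had 0.41 in F1 and -0.30 in F3, KLF2 had -0.31 in F2, and CEBPD had 0.45 in F3, none past the test. The median of the list was 0.05, -0.10 and -0.03, beside 0.07, -0.08 and -0.0016 for all genes.

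Of 34 effector and feedback genes, 27 were tested in each generation and 0 passed. BTG2, an antiproliferative gene induced by activity, had the lowest adjusted p of any gene of these lists in F3, at 0.34 log2 fold change (SE 0.07; limma, adjusted p = 0.0768), with 230 to 308 normalized counts in Veh and 314 to 381 in sGC, without overlap. RGS2, a brake on G protein signals, had -0.38 in F1 (SE 0.16; limma, adjusted p = 0.278). After scaling by size factors, under which 17.3% of all genes were called in F1, 3 of these 27 genes fell, RGS2 among them (-0.44; limma, adjusted p = 0.043). DUSP4 had 0.39 in F1 and -0.33 in F3, and in F2 GEM had 0.39 and CTGF -0.35.

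Of 32 regulators that act upstream, 26 were tested in each generation, and 1, 0 and 0 passed. EP300, the acetyltransferase that CREB recruits, rose in F1. The Veh animals ranged from 879 to 1289 normalized counts (mean 1037.2 ± 172, SD, n = 5) and the sGC animals from 1376 to 1684 (mean 1580.4 ± 125, SD, n = 5). Every sGC animal was above every Veh animal, with a log2 fold change of 0.62 (SE 0.12; limma, adjusted p = 0.0195). CREB1, the factor that binds cAMP response elements in the promoters of FOS and NR4A1, had 0.44 in F1 (SE 0.13; limma, adjusted p = 0.127), from 356 to 562 in Veh and 543 to 666 in sGC. With the size factors, under which 17.3% of all genes were called in F1, 6 of the 26 genes rose and 1 fell, CREB1 among those that rose (0.38; limma, adjusted p = 0.00475). In F2 CAMK2A had -0.24 and MEF2C -0.22, and in F3 CAMK4 and RPS6KA2 had -0.14 each, none past the test.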

How the data were processed

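Reads of mRNA libraries were aligned by the authors to the guinea pig genome (cavPor3) with TopHat2 and counted on genes with GenomicAlignments, outliers were removed by Cook's distance, ComBat was applied to the 2 sequencing batches of F3, and RUVSeq normalized the counts by residuals. The deposited values are such normalized counts in whole numbers, and they were handled as a score, since they are no longer raw reads. Further columns deposited by the authors give their own edgeR comparison (log2 fold change and log2 CPM, likelihood ratio and dispersion as a score, and a p-value with its false discovery rate), which was not used. How many directions RUVSeq took out is not given in the sources used here; near-zero singular values pointed to 1 in F1, 1 in F2 and 2 in F3. The re-sequenced libraries of 2 Veh animals of F3 were not analysed here.

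The generations were fitted separately by limma 3.58.1 (R 4.3.3; linear model and moderated statistics with a trend) after adding a pseudocount of 1 and taking log2. Genes whose mean reached 10 were tested, two-sided, with a Benjamini-Hochberg threshold of 0.05. Totals of the animals were left unscaled, so F1 and F2 fold changes include any difference in them; alternatives with median-of-ratios, total and quantile scaling, other pseudocounts and filters, no trend, batch terms and each animal left out were run. Fold changes on this scale understate those of low genes. Exact permutation tests were run per member, in Python 3.11.15 with numpy 2.4.6. Differences between generations used no adjustment over the members; they are given with the exact p and the p adjusted over all genes. The procedure was tested on simulated data. The number of animals limits the precision, and counting intervals were not computed for normalized values.

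The members, the gene lists and the tests were chosen with earlier results of these data known. Named genes were the 10 members, the genes of 3 pathway lists under the threshold in a generation (where fewer than 2 passed, the 2 with the largest absolute log2 fold change and a mean of 50 or more), and the 8 genes with the highest lowest-of-3 r with the mean of the tested members. Cell type markers were given as values beside results. Coordinates and sequences are not given, since no genome of the build used was used here; the neighbour of EGR4 was taken from the RefSeq table of mCavPor4.1.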

Additional observations from a re-analysis of the deposited data

Results flagged for a closer look

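In 60 groups of 5 or 6 animals, 2 values stood far from the rest of their group, where chance gives about 3. EGR3 of the F1 sGC animal SGM8 was 127 normalized counts, with the others at 39 to 45. EGR2 of the F3 sGC animal SGM21, of the later batch, was 2 normalized counts, with the others at 11 to 23, and without it the log2 fold change of EGR2 in F3 was -1.20 (limma, adjusted p = 0.233).

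For the difference of the sGC effect between generations, 6 of 30 comparisons of members had an unadjusted exact p under 0.05. Among all genes the shares were 14.7% (F1 and F2), 15% (F1 and F3) and 13% (F2 and F3). Comparisons with a member below the filter on low values did not enter the adjustment over all genes, and 0 of the others passed it. For ARC the F1 effect minus the F2 effect was 0.92 (0.74 to 1.05 when each animal was left out), and the F2 effect minus the F3 effect was -0.51 (-0.56 to -0.43). All 5 sGC animals of F1 and all 6 of F3 were above the Veh median and all 5 of F2 below it. For EGR2 the F1 effect minus the F3 effect was 2.10, and 1.56 (exact permutation p = 0.0417) with the first F3 batch. For EGR4 the F1 effect minus the F2 effect was 0.66 (exact permutation p = 0.0122) and the F2 effect minus the F3 effect was -0.55 (exact permutation p = 0.0209), from EGR4 values that were 54.2 times higher in F1 and 57.0 times higher in F3 than in F2. For NPAS4, below the filter on low values, the F2 effect minus the F3 effect was 1.30 (exact permutation p = 0.0395, not adjusted).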

How the results depend on the processing

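No member passed in any setting tried. The number of genes called in F1 was 78 on the deposited scale, 2058 with median-of-ratios size factors, 1943 scaled to the sample total, 2084 after quantile normalization and 30 without a trend, and 15 (without Veh SGM15) to 474 (without Veh SGM7) when each animal was left out. In F2 it was 0 (1395 genes at an unadjusted p under 0.05, limma), 42 after quantile normalization, 17 when the filter was raised to a mean of 50, and 0 to 114 (without Veh SGM28) with an animal left out. In F3 it was 6, with 10 without a trend, 1 with the removed directions as covariates, 2 in the first batch alone, 3 with batch as a covariate, and 1 to 15 (without sGC SGM18) with an animal left out. Some members changed sign, most of them near 0. EGR3 in F1 had -0.011, -0.0054 and -0.11 with size factors, total scaling and quantiles, and -0.26 to 0.17 with an animal left out. NR4A1 in F1 had -0.024, -0.018 and -0.10 in these, and -0.12 to 0.19 with an animal left out. EGR1 in F1 ran from -0.33 to 0.11 with an animal left out. EGR2 in F1, at 0.48 with all animals and so not near 0, ran from -0.032 (without Veh SGM15) to 0.78. FOS in F3 ran from -0.17 to 0.047. EGR1 in F3 was -0.048 in the first batch or with batch as a covariate, and -0.12 to 0.16 with an animal left out. EGR3 in F3 was 0.015 in both batch settings, and -0.13 to 0.022 with an animal left out. EGR4 in F3 was 0.0094 in both batch settings. JUNB in F1 minus F2 was -0.051 with size factors, NR4A1 in F2 minus F3 was -0.10 with the first F3 batch, and FOS with EGR4 in F2 had r = -0.11 on the deposited scale. The exact test gave p = 0.0714 for ARC in F1, and size factors p = 0.0636 for EGR4 in F2 minus F3. The causes were not tested. The leave-one-out fits of ARC between generations and of FOS with NR4A1, the first-batch correlations, the removed directions, the list of like genes without EGR4 and the adjustment over all genes were chosen after seeing the data. The deposited columns number the animals of both groups alike, and nothing ties a number to a litter or batch. Same-numbered animals had deviations correlated at -0.24 to 0.31 in F1, -0.41 to 0.22 in F2 and -0.54 to 0.19 in F3, and 2 of 16 Veh animals correlated best with their own number, so the numbers were not taken as pairs. With the number as a replicate block, also added after seeing the data, 146, 6 and 0 genes passed in F1, F2 and F3 (1127 in F3 at an unadjusted p under 0.05, limma) and 0 members. The number of animals, a removed direction in each table and the separate normalization of the tables limit these values.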
